A study of Mus musculus with 2 samples.

Results

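Mirtrons and other miRNAs that are made without Drosha were examined in the adult mouse hippocampus. The set holds 6 of the 2202 miRNA genes counted, chosen by name with earlier results of these data known. They are the mirtrons Mir877, Mir1224, Mir1981 and Mir702, and the hairpins Mir320 and Mir484. Mir320 and Mir484 are known to begin at a transcription start. Small RNA was sequenced from hippocampus tissue of female B6CASTF1/J mice, 2 months old, which are F1 hybrids of C57BL/6J and the castaneus-derived strain CAST/EiJ. The series is 1 group of 2 libraries, biological replicates 2 and 1, with no treatment and no genetic change named. The tissue is labelled as a layer of the hippocampus, with no layer named. The 2 libraries carry separate tissue records but 1 donor record, so the spread between them may be partly technical.

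Most miRNAs are cut from a long transcript in 2 steps: Drosha with its partner Dgcr8 crops the hairpin in the nucleus, and Dicer then removes the loop in the cytoplasm. A mirtron skips the first cut, because the splicing machinery excises a short intron that folds into the hairpin itself once the lariat is debranched. Mir320 and Mir484 skip it in another way: RNA polymerase II starts at the foot of the hairpin, and the short capped transcript goes to Dicer directly. These routes are background knowledge, mostly from cells that lack Drosha or Dgcr8, and gene counts from intact tissue do not measure them.

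The annotation was used to check the labels, and the sequences show what the check rests on. RefSeq (build GRCm38.p6) matched 5 of the 6 genes, all but Mir320, and each at its GENCODE M21 position. The hairpins of the mirtrons are given as RNA from 5′ to 3′, with the annotated mature arms in capitals.
Mir877: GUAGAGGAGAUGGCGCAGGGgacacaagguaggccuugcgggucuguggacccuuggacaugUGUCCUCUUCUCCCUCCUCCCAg
Mir1224: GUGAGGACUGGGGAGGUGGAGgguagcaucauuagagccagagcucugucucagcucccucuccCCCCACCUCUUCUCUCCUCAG
Mir1981: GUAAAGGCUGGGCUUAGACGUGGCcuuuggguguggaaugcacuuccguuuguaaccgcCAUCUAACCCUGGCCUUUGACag
Mir702: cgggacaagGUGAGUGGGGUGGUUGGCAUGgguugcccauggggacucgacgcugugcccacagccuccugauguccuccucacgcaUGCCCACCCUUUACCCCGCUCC

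The first 3 of these hairpins run from the GU of a 5′ splice site to the AG of a 3′ splice site and match an annotated intron to the base. Mir877 (chr17:35960730-35960814, minus strand) fills an intron of 85 bases in Abcf1, an ATP-binding protein of translation. Mir1224 (chr16:20604452-20604536, plus strand) fills an intron of 85 bases in Vwa5b2, which encodes a protein with a von Willebrand factor A domain. Mir1981 (chr1:184822407-184822488, minus strand) fills an intron of 82 bases in Marc2, a mitochondrial reductase. Mir702 (chr5:136991433-136991541, plus strand) differs from the other mirtrons in its ends. Its hairpin takes in 9 bases of an exon of Plod3, a collagen-modifying lysyl hydroxylase, and stops 2 bases before the end of the intron of 102 bases.

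The mature arms line up with the splice sites more closely than the hairpin of Mir702 does. The 5p arm began at the first base of the intron in all 4 mirtrons, Mir702 included. The 3p arm ended at the last intron base in Mir1224, 1 base before it in Mir877 and 2 bases before it in Mir1981 and Mir702. Of the 727 5p arms that RefSeq lists, 39 (5.36%) begin with GU, the letters of a 5′ splice site, searched at the first 2 bases of the arm on its own strand. Among all counted genes, 24 had an arm that began at the first base of an intron, and 11 of these, the 4 mirtrons included, reached 10 counts in each library.

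**Figure D1:**
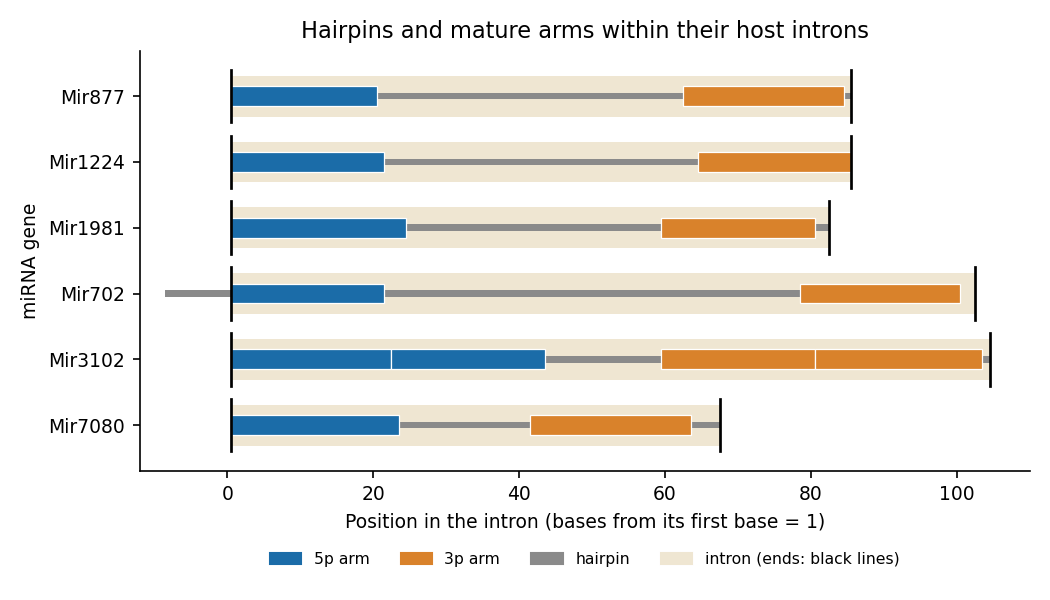
Position in bases from the first base of the host intron (x axis) of the hairpin, the 5p arms and the 3p arms of the 4 mirtrons, and of Mir3102 and Mir7080, which also fill an intron. The 5p arm starts at the first intron base in all 6 genes, and the hairpin of Mir702 is the one that begins 9 bases outside its intron.

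The mature arms are given with the seed, bases 2 to 8, in capitals, since the seed sets which messages a miRNA can pair with. The sequence of miR-3102-5p is added because, among the 1738 mature arms searched, it is the 1 arm of another gene that shares a seed with a member. Mir320 has no sequence among these arms, so no seed could be searched for it.
miR-484: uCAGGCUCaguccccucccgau
miR-877-5p: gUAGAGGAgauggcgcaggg
miR-877-3p: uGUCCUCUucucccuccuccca
miR-1224-5p: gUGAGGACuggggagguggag
miR-1224-3p: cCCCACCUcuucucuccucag
miR-1981-5p: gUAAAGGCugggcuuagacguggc
miR-1981-3p: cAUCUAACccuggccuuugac
miR-702-5p: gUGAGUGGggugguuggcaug
miR-702-3p: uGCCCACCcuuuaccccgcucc
miR-3102-5p: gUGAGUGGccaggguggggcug

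No seed was shared among the 9 arms given for the 5 members other than Mir320. The 5p arms of the mirtrons begin with G, the first base of the intron, which follows from their position. Of the 1738 mature arms in the table, 5p and 3p together, 41.3% begin with U, as do miR-484, miR-877-3p and miR-702-3p. The 9 arms given for members held between 52.4% (miR-1981-3p) and 68.2% (miR-702-3p) G and C. The counts are per gene, so how the reads of a mirtron divide between its 5p and 3p arm is not analysed here.

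Neither of the start-site hairpins lies within a gene on its own strand in GENCODE M21. Mir320 (chr14:70443510-70443591, plus strand) begins 63 bases upstream of the start of Polr3d, an RNA polymerase III subunit, which is transcribed in the opposite direction. Mir484 (chr16:14159626-14159692, plus strand) begins 3649 bases upstream of the nearest start on its own strand, that of the dynein regulator Nde1, and 359 bases upstream of a start of Marf1 on the other strand. No annotated start of a longer gene coincides with either hairpin, so the annotation does not show the label of these genes, which rests on background knowledge.

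The libraries held 5979247 (replicate 2) and 4517648 (replicate 1) sense counts on miRNA genes, and levels are given as counts per 1000000 of these (CPM). A count of 0 allows up to 0.502 CPM in replicate 2 against 0.664 CPM in replicate 1, and this floor and all intervals cover counting error only. Multimapping reads were assigned to no gene and made up 48.4% of replicate 2 and 45.9% of replicate 1. How many reads of the members were lost in this way was not measured. Within the counted miRNA genes, Mir1981 shares at most 14 bases with another counted miRNA gene and the other members fewer than that. As a check of the tissue label, 4 neuron-enriched genes summed to 47687 CPM in replicate 2 and 42469 CPM in replicate 1, while 4 genes of pluripotent cells summed to 1.17 and 1.99 CPM. Of the neuron-enriched genes only Mir132 was higher in replicate 2, with 24242 CPM against 16627 CPM in replicate 1. Mir128-1 (11179 against 13444 CPM) and Mir138-1 (3992 against 4119 CPM) were lower, and Mir137 was nearly equal (8274 and 8278 CPM). RNA of other cell types was present. The endothelial Mir126a had 13591 and 11285 CPM, and 2 mural genes summed to 8734 and 7938 CPM. The sums were 6974 and 6526 CPM for 2 oligodendrocyte genes and 142 and 95.4 CPM for 3 red cell genes. The mural, oligodendrocyte and red cell sums hold genes that went both ways. Mir143, Mir219a-2, Mir451a and Mir144 were higher in replicate 2. Mir338 was lower, as were Mir145a and Mir486 without passing the test described below. The sums of 3 microglial and leukocyte genes, 1192 and 1099 CPM, came mostly from Mir150, with 1115 and 1009 CPM. Mir142 had 61.2 and 71.1 CPM and Mir223 15.1 and 18.8 CPM, both lower in replicate 2 without passing the test described below. The islet and neuroendocrine Mir375 had 268 and 245 CPM and the liver Mir122 36.0 and 41.4 CPM. The muscle gene Mir206 was lower in replicate 2, at 29.4 against 79.0 CPM in replicate 1, with Mir1a-1 at 0 in both, and the part of these shifts in the members' differences was not tested. All 6 members had well over the 10 counts per library needed for the comparison of the libraries.

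The start-site hairpins were the abundant members and the mirtrons the scarce ones. Mir320, whose capped precursor is known to leave the nucleus through exportin 1, had 2128 CPM in replicate 2 (95% Wilson interval 2092 to 2166) and 2150 CPM in replicate 1 (2108 to 2193). Mir484, known from mouse heart muscle cells as a repressor of the mitochondrial fission gene Fis1, had 1292 CPM in replicate 2 (1263 to 1321) and 1555 CPM in replicate 1 (1519 to 1592). Mir320 was the higher of the pair in both libraries, by 1.65-fold in replicate 2 and 1.38-fold in replicate 1. A read of a small RNA library covers a whole mature miRNA, so these levels were not divided by hairpin length.

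Among the mirtrons, Mir877 had 295 CPM in replicate 2 (282 to 309) and 310.1 CPM in replicate 1 (294 to 327). Mir1981 had 203 CPM (191 to 214) in replicate 2 and 252 CPM (238 to 267) in replicate 1. Mir702 had 171 CPM (161 to 182) in replicate 2 and 184 CPM (172 to 197) in replicate 1. All 3 lay below Mir484 in each library, with a gap of 4.38-fold between Mir484 and Mir877 in replicate 2 and 5.01-fold in replicate 1. Mir1224 had 117 CPM (109 to 126) in replicate 2 and 208 CPM (195 to 222) in replicate 1. It was the lowest member in replicate 2 but stood above Mir702 in replicate 1, so these 2 neighbours do not differ beyond their spread, and its value in replicate 1 also overlapped the range of Mir1981. Every other pair of neighbours in the order Mir320, Mir484, Mir877, Mir1981, Mir702 kept apart, since their values over both libraries did not overlap.

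**Figure D2:**
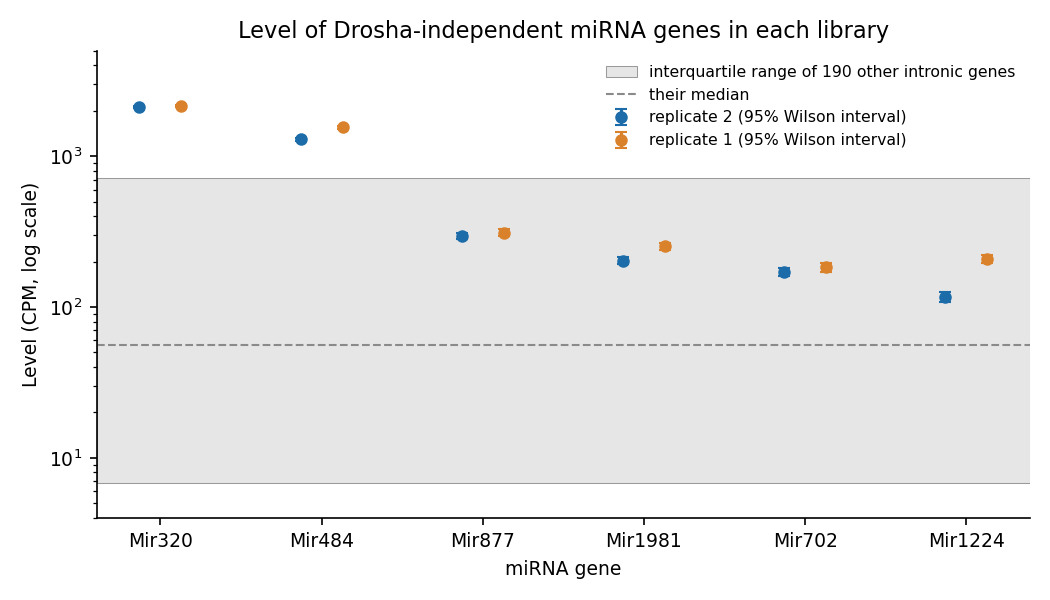
Level in CPM (y axis, log scale) of each member in replicate 2 and replicate 1, with 95% Wilson intervals. The shaded band is the interquartile range of 190 other intronic genes, which do not fill their intron, 6.83 to 717 CPM, and the dashed line their median of 55.9 CPM; Mir320 and Mir484 lie above the band and the 4 mirtrons inside it.

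The 6 genes together held 0.421% of the counts in replicate 2 (95% Wilson interval 0.415 to 0.426) and 0.466% in replicate 1 (0.460 to 0.472), or 0.443% ± 0.0321 (SD, n = 2). Mir320 and Mir484 made up 81.3% of the members' counts in replicate 2 and 79.5% in replicate 1. The 4 mirtrons held 0.0786% of all counts on miRNA genes in replicate 2 (0.0764 to 0.0809) and 0.0954% in replicate 1 (0.0926 to 0.0983). These are levels in a bulk tissue, where fewer cells that make a miRNA and less of it per cell cannot be told apart.

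Other intronic miRNA genes, which lie inside an intron on the same strand without filling it, were set beside the members to place these levels. Drosha is known to crop most hairpins of this kind, but the set also takes in candidates for tailed mirtrons, in which splicing makes 1 end of the hairpin. Of 790 such genes 190 reached 10 counts in each library, while 420 were at 0 in both. Mir320, at a mean of 2139 CPM, stood above 86.8% of the 190, and Mir484, at 1423 CPM, above 82.1%. Mir877, Mir1981, Mir702 and Mir1224 stood above 68.9%, 66.3%, 63.7% and 63.2% of them. In 40 of the 190 an end of the hairpin or of an arm fell on an intron end, 35 of them named in the range Mir6896 to Mir7118, and their median was 4.597 CPM. Without these 40 genes the median was 111 CPM (interquartile range 21.4 to 1032). Mir320 and Mir484 then stood above 83.3% and 77.3% of the remaining 150 genes, and Mir877, Mir1981, Mir702 and Mir1224 above 60.7%, 57.3%, 54.0% and 53.3%. All 6 members exceeded the median of 55.9 CPM and that of 111 CPM, but with a minimum of 100 counts in both libraries 113 other intronic genes remained, with a median of 427 CPM, and Mir320 and Mir484 alone exceeded it. Over all 2202 genes the members ranked 62 (Mir320), 80 (Mir484), 147 (Mir877), 164 (Mir1981), 176 (Mir702) and 183 (Mir1224) by mean CPM. No test was made of these placements, which describe a list of 6 chosen genes. Multimapping reads were assigned to no gene, and some of the other intronic genes share longer stretches with another miRNA gene than any member does. Such genes may have lost more reads, so the members' placements and ranks may read too high, by an amount that was not measured.

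The mirtrons were then set among all hairpins that fill an intron. With both hairpin ends within 10 bases of the intron ends, 29 of the 2202 genes qualified, and 22 of them matched the intron to the base. Of the 29 genes 11 reached 10 counts in each library and 6 were at 0 in both. The 4 mirtron members supplied 43.6% of the counts of these 29 genes in replicate 2 and 41.0% in replicate 1. They were not the highest of the kind. Mir3102, which fills an intron of 104 bases in Arhgef17 and carries 4 annotated arms, had 695 CPM in replicate 2 and 958 CPM in replicate 1, above every mirtron member. Mir7080, which fills an intron of 67 bases in the copine gene Cpne7, had 235 and 312 CPM and stood between Mir877 and Mir1981 by its mean. Unlike Mir877, Mir1224 and Mir1981, the hairpins of Mir3102 and Mir7080 also overlap an exon in another annotated transcript of their host. Below the members came Mir6944 in Dbn1, with 36.3 CPM in replicate 2 against 40.1 CPM in replicate 1, and Mir3547 in Baiap3, with 20.6 and 34.8 CPM.

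The remaining hairpins of this geometry had few reads. Mir1982 in the antizyme gene Oaz1, an intron matched to the base, had 22 counts in replicate 2 and 25 in replicate 1. Its hairpin too overlaps an exon in another transcript of its host. Mir1231 had 31 and 17 counts and the unnamed gene Gm24589, within Pkd1, 35 and 32. The other 18 genes did not reach 10 counts in both libraries. The genes named Mir6896 to Mir7118, a range that holds most of the 29, gave less in total than the 4 mirtron members. The members held 4698 counts in replicate 2 and 4311 in replicate 1, against 3983 and 3530 for the 203 genes of that name range, of which Mir7080 supplied 1407 and 1411.

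**Figure D3:**
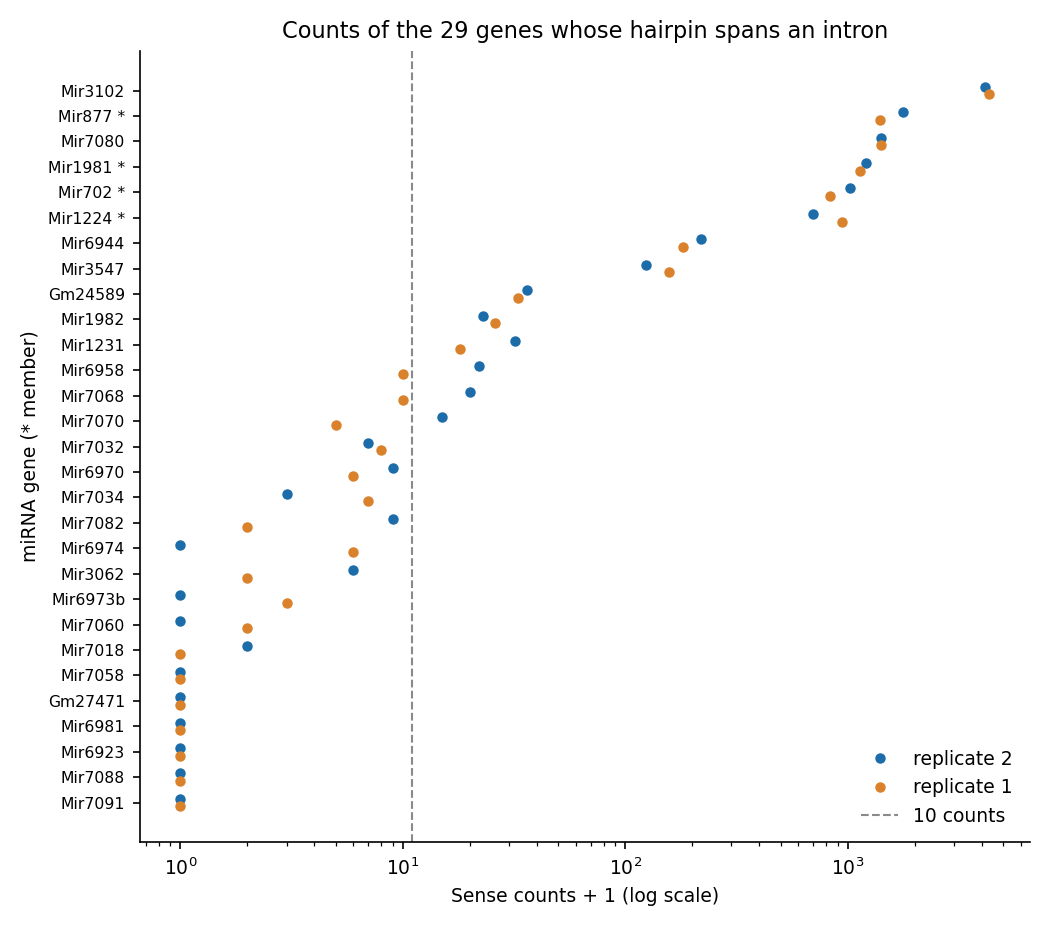
Sense counts plus 1 (x axis, log scale) in replicate 2 and replicate 1 for the 29 genes whose hairpin spans an annotated intron, ordered by mean CPM, with members marked by an asterisk. Mir3102 leads, the 4 members and Mir7080 follow, and most other genes lie left of the line at 10 counts.

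Hairpin shape was compared as well, over the 5 members and the 156 other intronic genes that have a RefSeq hairpin and pass the minimum. The members' hairpins were richer in G and C than most of these: Mir702 held 65.1%, Mir877 61.2%, Mir1224 60.0%, Mir484 58.2% and Mir1981 53.7%, against a median of 51.5% for the other intronic genes (interquartile range 45.8% to 57.6%). Their predicted folds were not deeper in step with this. The minimum free energy per base from RNAfold was -0.50 kcal/mol for Mir1224, -0.43 for Mir702 and Mir877 and -0.37 for Mir1981 and Mir484, against a median of -0.44 for the other intronic genes (interquartile range -0.48 to -0.38). Mir484 had the fewest paired bases of the members, 53.7% of its hairpin, and 1.92% of the other intronic hairpins had a lower share. The mirtrons had between 65.9% (Mir877) and 68.3% (Mir1981) of their bases paired, against a median of 70.6% for the other intronic genes. Leaving out the 33 of these hairpins with an end at an intron end gave medians of 49.0% for G and C, -0.45 kcal/mol per base and 72.1% paired, beside 58.6%, -0.42 and 61.3% for the 33.

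**Figure D4:**
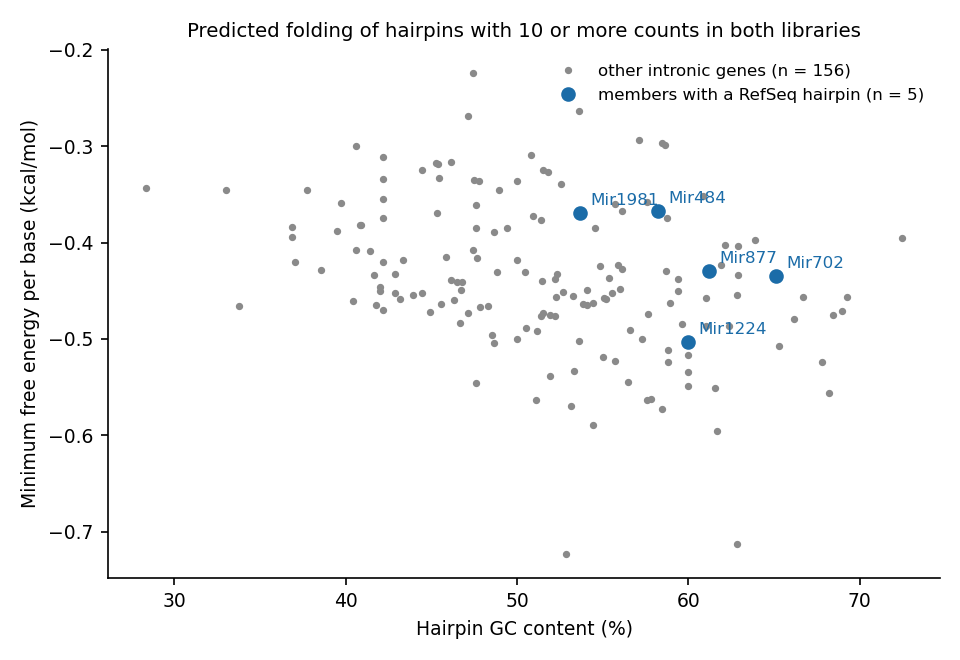
Hairpin GC content in % (x axis) against predicted minimum free energy per base in kcal/mol (y axis) for 5 members and 156 other intronic genes. The members lie at 53.7% GC or more, and their energies, from -0.50 to -0.37, fall within the range of the other intronic hairpins.

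The libraries were then compared gene by gene. For every gene that reached 10 counts in each library, its counts were set against the remaining miRNA counts of the same library (Fisher's exact test, two-sided). P-values were adjusted by Benjamini-Hochberg over all 420 such genes, with a threshold of 0.05, and the test compares the reads of 2 libraries, not conditions. Of the 420 genes 239, or 56.9%, passed: 29.8% of those tested were lower in replicate 2 and 27.1% higher. Of the 6 members 3 passed, a share near that of all genes, and all 3 were lower in replicate 2.

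Mir1224 differed most, with 699 counts in replicate 2 and 940 in replicate 1 although replicate 2 was the deeper library. Its log2 ratio of replicate 2 to replicate 1 was -0.83 (95% exact binomial interval -0.98 to -0.69, adjusted p = 1.4e-30 by Fisher's exact test), or 1.78-fold lower in replicate 2. Mir1981, with 1211 counts in replicate 2 and 1139 in replicate 1, had a log2 ratio of -0.32 (-0.43 to -0.20, adjusted p = 3.3e-07 by Fisher's exact test). Mir484, with 7723 counts in replicate 2 and 7024 in replicate 1, had a log2 ratio of -0.27 (-0.31 to -0.22, adjusted p = 1.3e-28, same exact test). The smaller p of Mir484 stands beside a smaller difference and a narrower interval, since Mir484 has more counts.

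Mir702, Mir877 and Mir320 did not pass. The log2 ratio of Mir702 was -0.10 (-0.24 to 0.03), from 1024 counts in replicate 2 and 831 in replicate 1, with an adjusted p = 0.197 (Fisher's exact test). That of Mir877 was -0.07 (-0.17 to 0.03), from 1764 counts in replicate 2 and 1401 in replicate 1, with an adjusted p = 0.240 (Fisher's exact test). That of Mir320 was -0.01 (-0.05 to 0.02), from 12726 counts in replicate 2 and 9713 in replicate 1, with an adjusted p = 0.557 (Fisher's exact test). Its interval is the tightest of the 6, and the sign of its ratio turned positive with TMM factors (0.02) and DESeq2 size factors (0.03), so no direction is given for it.

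Counting error is not the whole spread between libraries. The common dispersion that edgeR estimated over the 420 genes corresponds to a coefficient of variation of 0.312 beyond counting error. The SD over the mean was 0.397 for Mir1224, 0.154 for Mir1981 and 0.131 for Mir484. It was 0.0505, 0.0353 and 0.00716 for Mir702, Mir877 and Mir320. These ratios include counting error and rest on few libraries. The value of 0.397 beside 0.312 therefore cannot show whether Mir1224 varied more than the common spread. The median absolute log2 ratio was 0.19 over the 6 members, 0.30 over the 190 other intronic genes and 0.30 over all genes tested. The log2 ratio was below 0 for all 6 members (5 of 6 with TMM, DESeq2 or totals without the most abundant gene, Mirlet7g), beside 56.7% of all genes tested. Among the 62 other intronic hairpins with at least the 53.7% GC of Mir1981, the median log2 ratio was -0.07, and 61.3% were below 0. Among the 94 with less, the median was -0.07 and 55.3% were below 0. The median levels of these sets were unlike, at 10.6 and 94.8 CPM, and a link between GC content and the ratio was not tested.

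**Figure D5:**
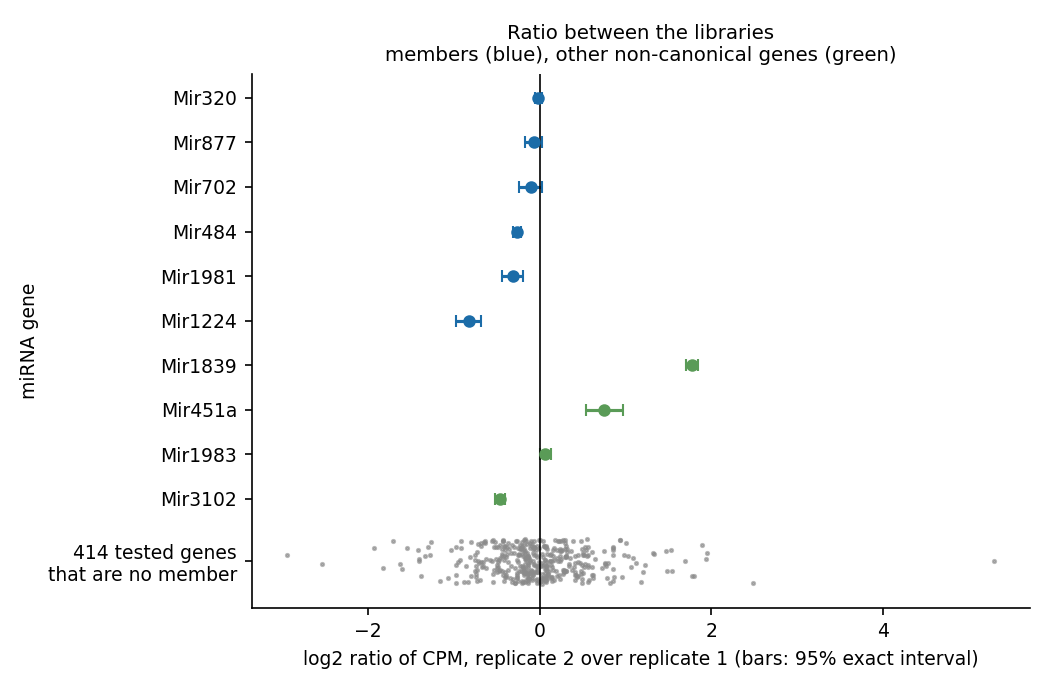
Log2 ratio of CPM, replicate 2 over replicate 1 (x axis), with 95% exact intervals for the 6 members and 4 other non-canonical genes, and without intervals for the 414 tested genes that are no member. Mir1224 stands apart from the other members at -0.83, and Mir1839 lies at 1.78, far to the right of every member.

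Other genes that fill an annotated intron, and genes known to bypass a canonical step, were also compared between the libraries. Of the 11 intron-filling genes that were tested, 5 passed the test, all lower in replicate 2 and 2 of them members. Of all genes tested 56.9% passed, 29.8% lower in replicate 2 and 27.1% higher. The 3 that are no member were Mir3102 (-0.46 on the log2 scale, adjusted p = 1.8e-48, Fisher's exact test), Mir7080 (-0.41, adjusted p = 2.2e-13 by the same exact test) and Mir3547 (-0.74, adjusted p = 3.1e-05 by the same exact test). Mir1839, whose hairpin resembles a small nucleolar RNA, had 1672 CPM in replicate 2, against 488 CPM in replicate 1, or 3.42-fold higher in replicate 2. Mir451a, the red cell miRNA that Drosha crops but Ago2 cuts in place of Dicer, had 98.0 CPM in replicate 2 and 58.2 CPM in replicate 1, a log2 ratio of 0.75 (adjusted p = 1.8e-12 by Fisher's exact test). It lies on the other strand of Mir451b, and its counts fall to 0 in both libraries when strand is ignored. Mir1983, which resembles a transfer RNA, had 749 CPM in replicate 2, against 715 CPM in replicate 1, and missed the threshold, with a log2 ratio of 0.07 and an adjusted p of 0.0788 (Fisher's exact test).

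The genes closest in level to each member were found by the distance between log2 CPM values over the 2 libraries, which is a weak measure with 2 points. Mir877 was closest to Mir384 (297 CPM in replicate 2, 315 CPM in replicate 1, distance 0.03), and to Mir145a (0.06). Mir702 was closest to Mir350 (0.07) and Mir129-1 (0.11), Mir484 to Mir434 (0.11) and Mir154 (0.14), and Mir320 to Mir708 (0.12) and Mir138-2 (0.14). Mir1981 was closest to Mir339 (0.18) and Mir30c-2 (0.23). For Mir1224, Mir377 lay at 0.17, with 130.1 CPM in replicate 2 against 219 CPM in replicate 1, and Mir500 at 0.38, with 145 and 244 CPM. Mir708, Mir138-2, Mir129-1 and Mir30c-2 share 23, 24, 26 and 28 bases with another miRNA gene, so their levels are uncertain.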

How the data were processed

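The authors deposited 1 table of read counts per library, over miRNA genes of mouse build mm10 and annotation GENCODE M21, per the notes deposited with the files; the values are whole numbers, not normalized. The aligner, the trimming and the handling of reads of the castaneus-derived genome are not given by any source used here. The sense column, the strand column with the larger total, was used. Lines of reads given to no gene (unmapped, in several places, outside genes) were left out of totals. They made up all but 36.7% of reads in replicate 2 and 38.7% in replicate 1.

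Log2 ratios are of CPM plus 0.5. With 1 group of 2 libraries no count model has a condition to test, and leaving out a library leaves no ratio. Fisher's exact test and exact binomial intervals came from scipy 1.17.1 and were tested on simulated counts; scalings and dispersion came from edgeR 4.0.16 and DESeq2 1.42.0. Positions came from GENCODE M21, all 2202 identifiers matching, and folds from RNAfold 2.7.2. The members and lists were chosen with earlier results of these data known. Named beside the members are 4 other non-canonical genes, intron-filling genes, seed mates and the 2 genes nearest in level to each member. The alternatives took the unstranded column, other scalings, count minima and pseudocounts, thinning, other limits for spanning an intron and, added after seeing the data, the other intronic genes without those ending at an intron end.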

Additional observations from a re-analysis of the deposited data

How the results depend on the processing

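The 3 members past the threshold stayed at 3, all lower in replicate 2, under each alternative to the test, and none was higher. Of the 60 log2 ratios recomputed for members, 57 kept their direction and their side of the threshold. The 3 exceptions are Mir320, which turned to 0.0229 with TMM factors, 0.0285 with DESeq2 size factors and 0.0032 with totals without Mirlet7g, without passing in any of them (adjusted p between 0.219 and 0.933 by the exact binomial test). The members' share of 0.443% became 0.480% in the column without regard to strand and 0.506% without Mirlet7g, since both change the denominator, and ran from 0.421% to 0.466% with 1 library left out. Members above the median of the other intronic genes fell to 2 at a minimum of 100 counts, which leaves the more abundant genes, and stayed at 6 with 1 library left out and, in an alternative chosen after seeing the data, without the 40 intronic genes with an end at an intron end. Hairpins that span an intron numbered 49 with ends within 20 bases, Mirlet7i among them. With ends within 5 bases they numbered 23, and the member Mir702 was no longer among them. No paired analysis was possible because the series has 1 group. With 2 libraries and intervals that cover counting error only, the smallest detectable difference was not determined and may exceed the intervals given.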
